A study of Homo sapiens with 4 samples.

Results

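The genes described here build and supply the primary cilium, the single non-motile projection through which many cells sense their surroundings. The set holds 48 genes, each measured on every array, of 18417 genes compared: LZTFL1 and TULP3, which regulate what enters the cilium, 10 genes of the BBSome and its assembly, 9 of IFT-B, 5 of IFT-A, 6 motor genes, 11 of the transition zone and ciliary membrane, and 5 of the Hedgehog pathway. The members were given as a list of gene names, drawn up with earlier results of these data known, and each gene was read from its transcript cluster with the highest mean signal. The cells were MDA-MB-468, established from a human breast carcinoma and expressing the p53 mutant R273H from its own gene, and their RNA was hybridized to 4 whole-transcript Affymetrix arrays (Human Gene 1.0 ST). The cells of 2 arrays had received p53si-1, a lentiviral shRNA against that mutant p53, and those of the other 2 a non-targeting lentiviral shRNA (NS). All cells were of this single line, were transduced with lentivirus and were grown in the same medium with serum. The study describes the duplicates as independent experiments, and its text gives different transduction times in different places, so no time is stated here. A single p53 shRNA was used on the arrays, so loss of the mutant p53 and any other action of that shRNA cannot be told apart, and the p53 transcript is not analysed here.

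In a ciliated cell the centriole docks at the membrane as a basal body and extends a microtubule axoneme. Intraflagellar transport (IFT) carries cargo along it: the IFT-B complex with kinesin-2 motors moves towards the tip, and the IFT-A complex with dynein-2 returns to the base. The BBSome, a coat named after Bardet-Biedl syndrome, rides on IFT trains and takes membrane proteins out of the cilium, while the transition zone at the base acts as a gate. Vertebrate Hedgehog signaling depends on the cilium: the receptor PTCH1 leaves it on ligand binding, SMO enters it, and the GLI transcription factors are processed in connection with it. Cilia themselves were not measured on these arrays, which report transcripts of a bulk cell population. Fewer cells that express a gene and less RNA per cell therefore cannot be told apart.

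Values are log2 signals, so a difference of 1 is a 2-fold difference. Over all 33297 transcript clusters the arrays ran from 1.75 to 14.3, with medians between 5.66 and 5.69. Among the 18417 genes, each read from its brightest cluster, the middle gene had a mean signal of 6.59. Of the 48 members, 26 lay above that middle and 3, DYNC2H1, GLI1 and GLI2, lay in the dimmest 25% of genes, below 4.72. The label of the cells was checked with marker genes. All 6 epithelial markers (EPCAM, CDH1, KRT8, KRT18, KRT5 and EGFR) were bright, at 9.38 to 12.5 on every array. The pan-leukocyte gene PTPRC read 3.14 and 3.01 with p53si-1, against 3.12 and 3.06 with NS shRNA, and the fibroblast genes DCN and LUM lay between 3.04 and 3.37. The 4 endothelial markers lay between 4.19 and 5.11. The T-cell gene CD3E lay between 3.63 and 3.88. The collagen genes COL1A2, at 5.64 to 5.81, and COL1A1, at 7.05 to 7.32, and the monocyte gene CD14, at 9.69 to 9.92, read higher than these. None of the markers passed the adjusted test between the groups, and at an unadjusted p under 0.05 only the basal keratin KRT5 differed, with a log2 fold change of -0.41.

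LZTFL1 and TULP3 rose with p53si-1, to about 2-fold the level of NS cells. They are 2 of the 6 genes in the whole table that were higher at an adjusted p under 0.05 (0.0326% of genes). No member was lower at that threshold, as 0.076% of all genes were. LZTFL1 encodes a leucine zipper protein that binds the BBSome and holds back its entry into the cilium. Its log2 signals were 6.26 and 6.45 on the p53si-1 arrays, against 5.35 and 5.26 on the NS arrays. Every p53si-1 value stood above every NS value, with a gap several times the spread inside either group. The means were 6.35 ± 0.13 with p53si-1 and 5.30 ± 0.06 with NS shRNA (SD, n = 2 each), a log2 fold change of 1.05 (standard error, SE, 0.10, 2.07-fold, limma adjusted p = 0.0484). TULP3 encodes a tubby family protein that binds IFT-A and membrane phosphoinositides and brings receptors such as GPR161 into the cilium. It had 7.17 and 7.37 with p53si-1, against 6.19 and 6.31 with NS shRNA, again without overlap. Its means were 7.27 ± 0.14 with p53si-1 and 6.25 ± 0.09 with NS shRNA (SD, n = 2 each), and its log2 fold change was 1.02 (SE 0.10, 2.03-fold, limma adjusted p = 0.0484).

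Both calls stood close to the threshold. Without p53si-1 replicate 1, p53si-1 replicate 2, NS replicate 1 or NS replicate 2, the adjusted p for LZTFL1 was 0.154, 0.223, 0.0652 and 0.0899, and for TULP3 it was 0.154, 0.223, 0.0776 and 0.0899. The fold changes stayed between 0.96 and 1.14 for LZTFL1 and between 0.92 and 1.12 for TULP3 on the log2 scale. With every transcript cluster in the fit, named or not, both genes had a limma adjusted p of 0.357. That setting changes the prior variance as well as the number of tests. An exact two-sided permutation test over the 4 arrays has a smallest possible p of 0.33, so none was run for single genes.

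**Figure D1:**
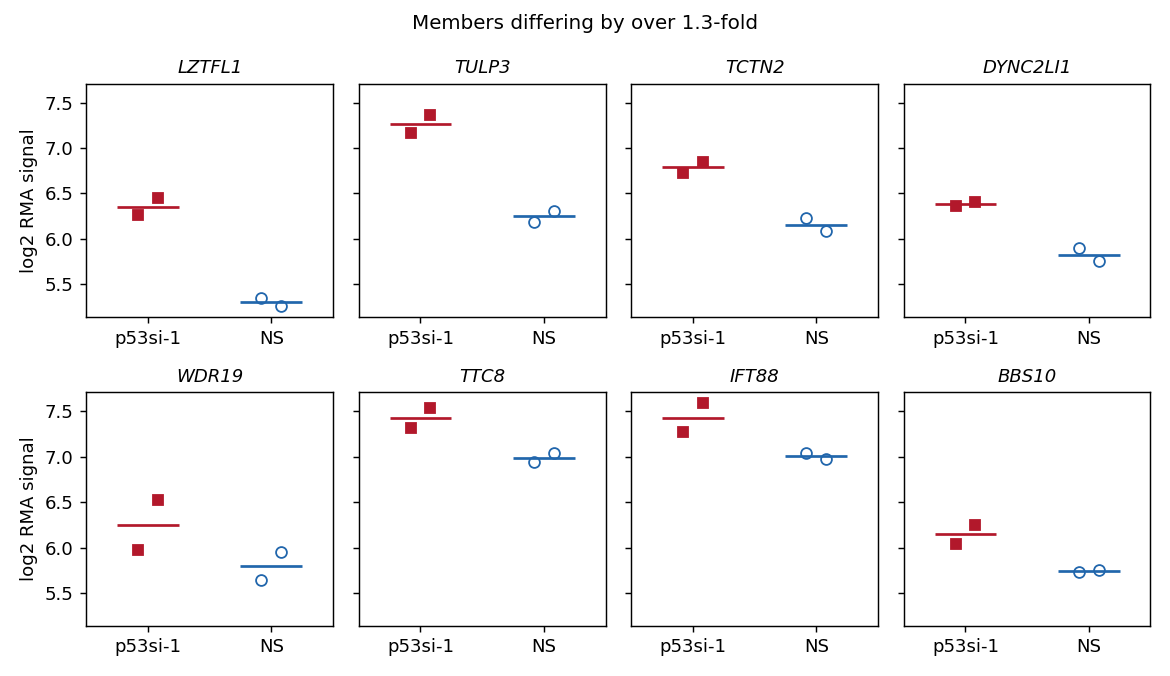
Log2 RMA signal of the 8 members that differed by over 1.3-fold, with p53si-1 arrays (filled squares) left of NS arrays (open circles). Each point is 1 array and each line is a group mean (n = 2). Only in WDR19 do the groups nearly touch, at 5.98 for the lower p53si-1 array and 5.95 for the higher NS array.

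Both genes are shown here with the sequence around their annotated starts, because they are the members with a called change and because ciliary genes often carry a site for RFX transcription factors (an X-box) near the start. The sequences are RefSeq's, on GRCh38.p14, and run from 250 bases before to 50 bases after the annotated start, 5′ to 3′ along the gene. LZTFL1 lies on chromosome 3 from 45823316 to 45915724 and has 2 such windows, of which the one nearer the end of the gene comes first. TULP3 lies on chromosome 12 from 2890891 to 2941138 and has 1 window. Capitals mark GTTGCC, a short core of the X-box, searched on both strands.
LZTFL1, chr3:45842070-45842369, minus strand: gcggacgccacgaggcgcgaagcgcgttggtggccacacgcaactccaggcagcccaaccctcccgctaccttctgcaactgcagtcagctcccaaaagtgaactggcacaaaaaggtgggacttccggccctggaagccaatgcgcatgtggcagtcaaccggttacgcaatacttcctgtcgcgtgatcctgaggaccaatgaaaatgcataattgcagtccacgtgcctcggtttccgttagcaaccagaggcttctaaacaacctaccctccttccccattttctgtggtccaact
LZTFL1, chr3:45915675-45915974, minus strand: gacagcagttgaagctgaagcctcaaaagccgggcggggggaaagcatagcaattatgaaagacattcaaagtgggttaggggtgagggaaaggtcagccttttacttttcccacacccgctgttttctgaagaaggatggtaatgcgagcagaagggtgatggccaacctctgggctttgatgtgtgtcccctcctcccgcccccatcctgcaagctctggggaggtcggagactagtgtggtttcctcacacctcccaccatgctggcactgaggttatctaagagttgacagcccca
TULP3, chr12:2890641-2890940, plus strand: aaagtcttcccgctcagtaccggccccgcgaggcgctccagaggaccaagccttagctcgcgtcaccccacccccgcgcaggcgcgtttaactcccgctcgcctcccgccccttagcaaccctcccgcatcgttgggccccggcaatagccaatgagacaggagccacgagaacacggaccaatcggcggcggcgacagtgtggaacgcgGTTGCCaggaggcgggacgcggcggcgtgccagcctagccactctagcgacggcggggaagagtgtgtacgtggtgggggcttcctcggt

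The TULP3 window holds 1 GTTGCC, which begins at position -40 when the start base is counted as 0, and neither LZTFL1 window holds one. Other forms of the X-box are not marked, so a window without GTTGCC is not shown to lack an X-box. GC content was 68.0% in the TULP3 window, and 56.3% and 54.0% in the LZTFL1 windows. LZTFL1 was measured by 1 transcript cluster, so the arrays do not tell transcripts from its starts apart.

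The genes beside them on the chromosome had values near 0. The nearest 3 measured genes on each side of LZTFL1 had log2 fold changes from -0.019 (FYCO1) to 0.16 (LIMD1-AS1), and none was separated between the groups. CCR9, a chemokine receptor gene that lies within the span of LZTFL1, had 3.93 and 3.81 with p53si-1 and 3.70 and 3.89 with NS shRNA. SACM1L, a phosphoinositide phosphatase gene, had 9.65 and 9.64 with p53si-1 and 9.62 and 9.69 with NS shRNA. Around TULP3 the values ran from -0.11 (TEAD4) to 0.059 (RHNO1). FOXM1, a cell cycle transcription factor gene, read 8.90 and 9.02 with p53si-1 and 8.95 and 9.01 with NS shRNA. TEAD4, a transcription factor of the Hippo pathway, was the only one whose groups did not overlap, at 7.67 and 7.63 with p53si-1 and 7.75 and 7.77 with NS shRNA, and it did not pass the test. Over all genes, 19.9% were separated upward and 22.6% downward. Differences between neighbours were not tested.

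Across the whole set, 40 of 48 members had a higher mean with p53si-1, or 83.3%, against 47.4% of all genes. The other 8 had a lower mean, as 52.6% of all genes did. The median log2 fold change was 0.11 over the members and -0.0089 over all genes. Without LZTFL1 and TULP3, the other 46 had a median of 0.10, and 38 of them had a higher mean. In 24 of the 48 members both p53si-1 arrays stood above both NS arrays, against 19.9% of all genes. In 5 members both p53si-1 arrays stood below both NS arrays, against 22.6% of all genes, and in 19 the groups overlapped. Most of these differences were small. Only 3 members (LZTFL1, TULP3 and TCTN2) were higher by over 1.5-fold, the threshold of the study, against 0.271% of all genes. No member was lower by that much, against 0.652% of all genes. By over 1.3-fold, 8 members were higher and 0 were lower, against 1.45% and 2.56% of all genes. The 48 genes work in shared complexes and were read from the same 4 arrays, so they are not independent observations, and the list was not chosen blind to these arrays.

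At an unadjusted p under 0.05, 16 members (33.3%) were higher, against 5.45% of all genes, and 1 member, TMEM216, was lower, against 6.8% of all genes. The count of 16 became 8 without p53si-1 replicate 2, when 3.67% of all genes were higher, and 10 with every transcript cluster in the fit, when 3.93% were. The count of 1 ran from 0 without NS replicate 1 to 2 without p53si-1 replicate 2. The median was above 0 in both pairs of arrays: it was 0.11 between the replicates numbered 1 and 0.13 between those numbered 2. Of the members, 31 were higher in both of these pairs. Inside the p53si-1 group, replicate 2 exceeded replicate 1 in 29 of 48 members, with a median difference of 0.064, against -0.016 over all genes. Inside the NS group replicate 2 exceeded replicate 1 in 22 members, with a median difference of -0.027.

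**Figure D2:**
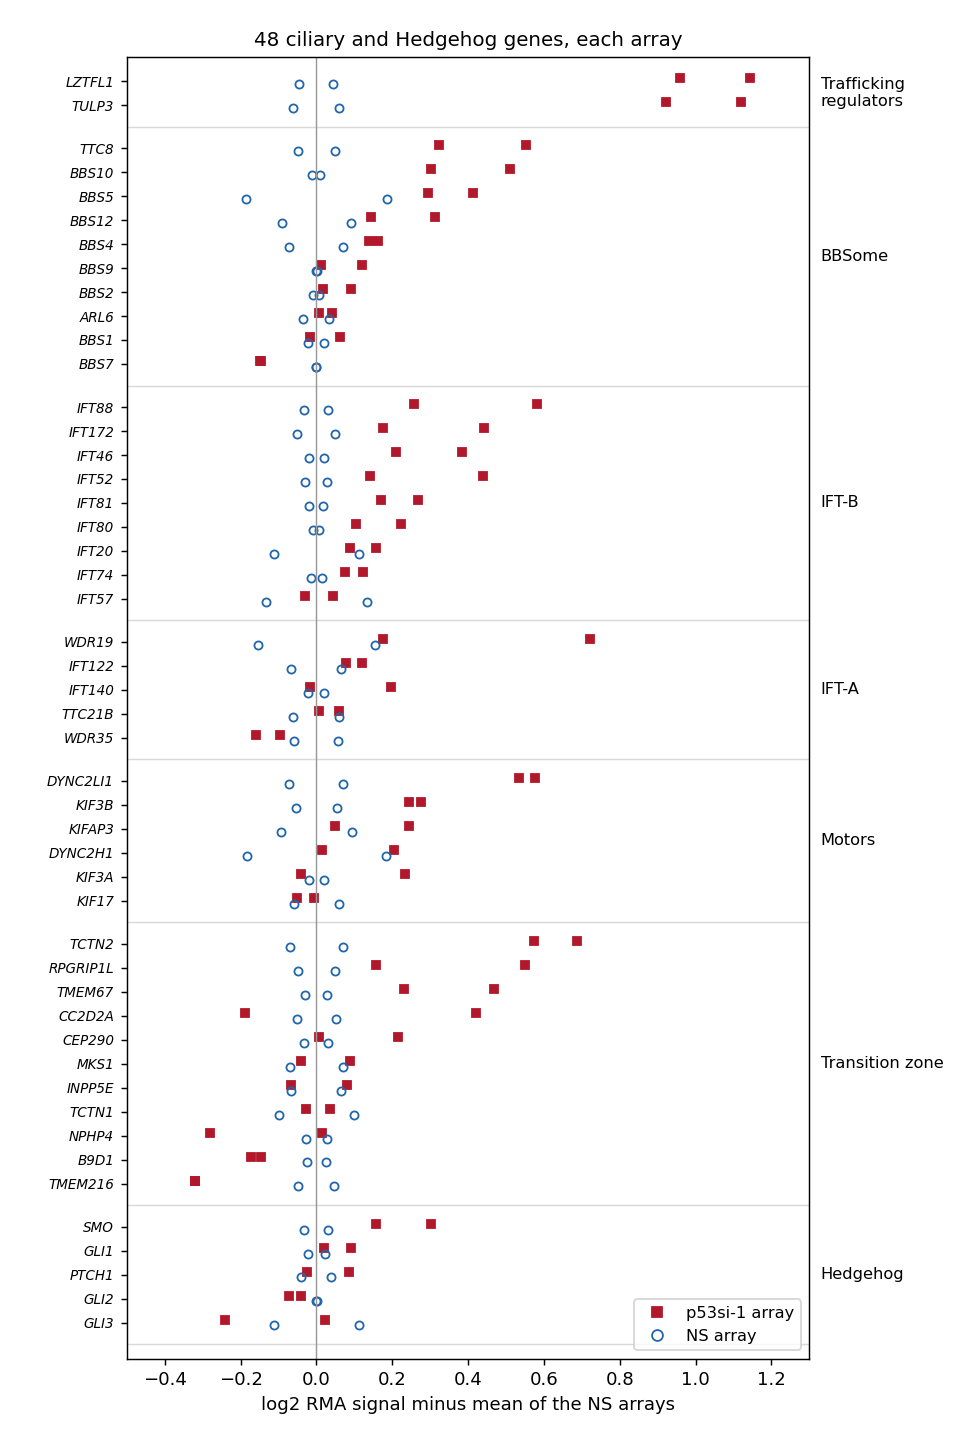
Each of the 48 genes on each array, as log2 RMA signal minus the mean of the NS arrays, grouped by role and ordered within a role by log2 fold change. Filled squares are the 2 p53si-1 arrays and open circles the 2 NS arrays. LZTFL1 and TULP3 lie near 1, and all 9 IFT-B genes have a mean above 0.

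**Figure D3:**
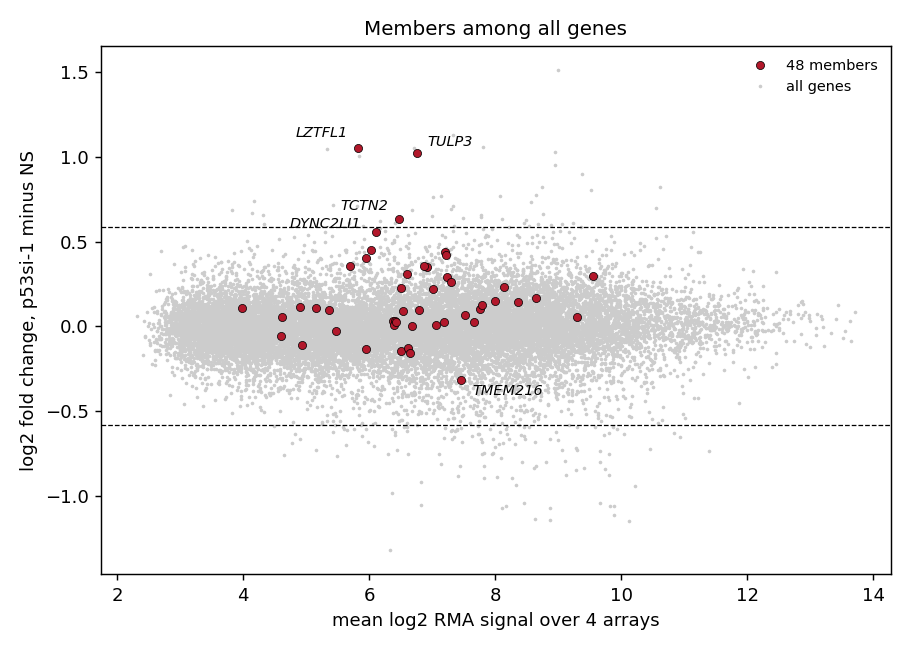
Log2 difference, p53si-1 minus NS, against the mean log2 RMA signal over 4 arrays, for the 48 members (red) and all 18417 genes (grey). Dashed lines mark 1.5-fold. LZTFL1, TULP3 and TCTN2 lie above the upper line, and TMEM216 at -0.32 is the lowest member.

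The BBSome is a coat complex recruited to membranes by the GTPase ARL6 and assembled with the help of the chaperonin-like proteins BBS10 and BBS12. None of its 10 genes passed the adjusted test, and 3 (TTC8, BBS10 and BBS5) were higher at an unadjusted p under 0.05, against 5.45% of all genes. Of the 10, 9 had a higher mean (against 47.4% of all genes), 7 were separated upward (against 19.9%), and the median log2 fold change was 0.11. TTC8, the subunit also called BBS8, had 7.31 and 7.54 with p53si-1, against 6.94 and 7.04 with NS shRNA (log2 fold change 0.44, SE 0.11, limma adjusted p = 0.196). BBS10 had 6.04 and 6.25 with p53si-1, against 5.73 and 5.75 with NS shRNA, a log2 fold change of 0.41. In both genes the p53si-1 arrays stood clear of the NS arrays. BBS5, a subunit that binds phosphoinositides, had 5.82 and 5.93 with p53si-1, against 5.71 and 5.34 with NS shRNA. Its log2 fold change of 0.35 came with an NS pair that lay far apart, and was 0.54 without NS replicate 1 and 0.17 without NS replicate 2. The log2 fold changes of BBS12 and BBS4, another subunit, were 0.23 and 0.15. The core subunits BBS9, BBS2 and BBS1 and the GTPase ARL6 differed by 0.067 or less. BBS7, also a core subunit, was the member of this group with a lower mean, at -0.15, and the groups did not overlap.

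All 9 IFT-B genes had a higher mean, as 47.4% of all genes did, and 7 were higher in both same-numbered pairs of arrays, IFT57 and IFT20 being lower in the pair numbered 1. Of the 9, 7 were separated upward (against 19.9% of all genes) and 5 were higher at an unadjusted p under 0.05 (against 5.45%), though none passed the adjusted test. Their median log2 fold change was 0.22. IFT88, a core subunit without which mouse cells fail to build cilia, had 7.27 and 7.59 with p53si-1, against 7.04 and 6.98 with NS shRNA (log2 fold change 0.42, SE 0.12, limma adjusted p = 0.265). IFT172, a peripheral subunit, had 6.88 and 6.62 with p53si-1, against 6.39 and 6.49 with NS shRNA, a log2 fold change of 0.31. IFT46, a core subunit, had 9.62 and 9.80 with p53si-1, against 9.43 and 9.39 with NS shRNA, a log2 fold change of 0.30. All 3 genes were higher on both p53si-1 arrays, and in each the p53si-1 arrays differed from each other by more than the NS arrays did. The log2 fold change of IFT88 was 0.26 without p53si-1 replicate 2, and that of IFT172 was 0.18 without p53si-1 replicate 1. IFT52, another core subunit, was at 0.29, and the tubulin-binding pair IFT81 and IFT74 was at 0.22 and 0.10. IFT80 and IFT20 were at 0.16 and 0.12, and IFT57 at 0.0069 did not differ beyond the spread of its arrays.

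IFT-A serves the return transport and, with TULP3, the entry of membrane proteins. Its 5 genes had a median log2 fold change of 0.090, and 4 had a higher mean (against 47.4% of all genes). None passed an unadjusted p of 0.05, at which 5.45% of all genes were higher and 6.8% lower. WDR19 (IFT144) had 5.98 and 6.52 with p53si-1, against 5.65 and 5.95 with NS shRNA. Its log2 fold change of 0.45 had a standard error of 0.19, and both pairs lay far apart. It was 0.72 without p53si-1 replicate 1, 0.18 without p53si-1 replicate 2 and 0.29 without NS replicate 1. IFT122 had 7.84 and 7.79 with p53si-1 and 7.65 and 7.78 with NS shRNA. IFT140 had 6.70 and 6.48 with p53si-1 and 6.48 and 6.52 with NS shRNA. TTC21B (IFT139) had 6.46 and 6.41 with p53si-1 and 6.46 and 6.34 with NS shRNA. The p53si-1 arrays of IFT122 stood just above its NS arrays, and those of IFT140 and TTC21B overlapped them. WDR35 (IFT121) had 6.53 and 6.59 with p53si-1, against 6.63 and 6.74 with NS shRNA, and both p53si-1 values were the lower ones. The log2 fold changes of these 4 genes ran from -0.13 to 0.10.

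Among the motors, DYNC2LI1, the light intermediate chain of dynein-2, had 6.36 and 6.40 with p53si-1, against 5.90 and 5.76 with NS shRNA. It was the fourth highest member and lay just under 1.5-fold, with a log2 fold change of 0.56 (SE 0.09, 1.47-fold, limma adjusted p = 0.0923). The heavy chain gene of the same motor, DYNC2H1, was dim, at 3.94 and 4.13 with p53si-1 and 3.74 and 4.11 with NS shRNA. Its groups overlapped, and a second transcript cluster of the gene had a log2 fold change of 0.025. KIF3B, a kinesin-2 motor subunit, had 7.44 and 7.41 with p53si-1, against 7.22 and 7.11 with NS shRNA, a log2 fold change of 0.26. KIFAP3, the accessory subunit of that kinesin, had 8.53 and 8.34 with p53si-1 and 8.38 and 8.19 with NS shRNA, and the groups overlapped. Its log2 fold change of 0.15 ran from 0.048 without p53si-1 replicate 1 to 0.24 without p53si-1 replicate 2. The partner motor subunit KIF3A was at 0.10, and KIF17, a separate kinesin-2, at -0.028.

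Of the 11 transition zone genes, 8 had a higher mean (against 47.4% of all genes) and 3 a lower mean, with a median of 0.024. In this group 3 genes (27.3%, against 19.9% of all genes) were separated upward and 2 (18.2%, against 22.6%) downward. TCTN2, a tectonic of the MKS complex at the ciliary gate, was the third member over 1.5-fold. It had 6.73 and 6.84 with p53si-1, against 6.22 and 6.09 with NS shRNA, a log2 fold change of 0.63 (SE 0.09, 1.55-fold, limma adjusted p = 0.0824). The groups stood well apart, but the gene did not pass the adjusted test. RPGRIP1L, a scaffold of the transition zone, had 6.85 and 7.24 with p53si-1, against 6.74 and 6.65 with NS shRNA, a log2 fold change of 0.35. TMEM67 (meckelin) had 6.97 and 7.21 with p53si-1, against 6.71 and 6.77 with NS shRNA, a log2 fold change of 0.35. Both were higher on either p53si-1 array, with replicate 2 the higher one. Without p53si-1 replicate 2 their log2 fold changes were 0.16 and 0.23, and without p53si-1 replicate 1 that of RPGRIP1L was 0.55. TMEM216, named here after its values were seen, had 7.31 and 7.31 with p53si-1, against 7.67 and 7.58 with NS shRNA. Its log2 fold change of -0.32 (limma adjusted p = 0.225) was the lowest of the 48. It encodes a membrane protein of the same MKS complex as TMEM67 and TCTN2. B9D1, another MKS complex protein, was also lower on both p53si-1 arrays, at -0.16, and NPHP4 was at -0.13 with overlap. The remaining 5, CC2D2A, CEP290, MKS1, the ciliary phosphoinositide phosphatase INPP5E and TCTN1, lay between 0.0044 and 0.12, and the groups overlapped in each.

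The Hedgehog genes, which include the usual transcriptional readouts of the pathway, showed no common direction. A higher mean was found in 3 (against 47.4% of all genes) and a lower mean in 2 (against 52.6%). Their median log2 fold change was 0.032. SMO, the signal transducer, had 8.18 and 8.33 with p53si-1, against 7.99 and 8.06 with NS shRNA, a log2 fold change of 0.23 (SE 0.09, limma adjusted p = 0.393). It was the only one of the 5 that was separated upward (20.0%, against 19.9% of all genes). GLI1, a direct target of the pathway, had 4.68 and 4.61 with p53si-1 and 4.61 and 4.57 with NS shRNA. PTCH1, the receptor and also a direct target, had 6.34 and 6.45 with p53si-1 and 6.32 and 6.40 with NS shRNA. Their log2 fold changes were 0.056 (95% confidence interval -0.14 to 0.26) and 0.032 (-0.18 to 0.25), so no difference was detected in either. The GLI1 signal lay in the range of the endothelial markers, so a change of its transcript may not be visible at this signal. GLI2 had 4.59 and 4.56 with p53si-1 and 4.63 and 4.64 with NS shRNA, a small difference without overlap. GLI3, which acts mainly as a repressor, had 5.01 and 4.74 with p53si-1 and 4.87 and 5.10 with NS shRNA, with overlap. At 4.56 to 5.10, the 3 GLI transcripts were close to the dimmest 25% of genes or in it.

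Ciliary and Hedgehog genes outside the set were read from the same fit. Of 88 such genes in 7 lists, 81 were measured, and none passed an adjusted p of 0.05 or differed by over 1.5-fold. At an unadjusted p under 0.05, 7 were higher (8.64%, against 5.45% of all genes) and 3 were lower (3.70%, against 6.8%). Of the 81, 39 had a higher and 42 a lower mean, with a median of -0.018. Separation was upward in 17 (21.0%, against 19.9% of all genes) and downward in 25 (30.9%, against 22.6%). Of the remaining BBSome and IFT genes, 12 were measured. Of these, 10 had a higher and 2 a lower mean, 4 passed an unadjusted p of 0.05, all higher, and the median was 0.13. Separation was upward in 6 of the 12 and downward in 0. CLUAP1 (IFT38), a peripheral IFT-B subunit, had 7.53 and 7.39 with p53si-1, against 6.96 and 6.91 with NS shRNA, a log2 fold change of 0.52 (limma adjusted p = 0.0982). IFT70A (TTC30A) had 6.29 and 6.72 with p53si-1, against 6.06 and 6.04 with NS shRNA, a log2 fold change of 0.46. IFT70B, its near-identical neighbour, was at 0.15, and probes may not separate the pair. BBIP1 was not measured.

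The other lists differed in direction. Among 13 further transition zone and ciliary membrane genes, 9 had a higher mean (against 47.4% of all genes), with a median of 0.049. RPGR and IQCB1 (NPHP5), both of which cause retinal disease when mutated, were at 0.34 and 0.29. Of 15 further Hedgehog genes, 12 had a lower mean (against 52.6% of all genes), with a median of -0.087. Separation was downward in 6 (against 22.6% of all genes) and upward in 0 (against 19.9%). The co-receptor genes CDON and BOC were at -0.23 and -0.22. The 4 other tubby family genes ran from -0.094 (TUB) to 0.14 (TULP4), and TULP2 was at 0.11. Of 17 basal body and ciliogenesis genes, 12 had a lower mean, with a median of -0.070. Separation was downward in 9 of them and upward in 4. CCP110, a centriolar cap protein that holds back ciliogenesis, was at 0.36, and RAB3IP (Rabin8), which activates RAB8, was at -0.24. The genes for the factors RFX1, RFX2 and RFX3 were at -0.083, -0.21 and -0.11. The 7 genes of cilium disassembly had a median of -0.051, with KIF24 at 0.15 and NEDD9 at -0.12. Of 13 genes of motile cilia, 9 lay in the dimmest 25% of genes, and their median was -0.027, with DNAH9 at -0.14 and CCDC39 at 0.12.

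The members were also compared by the sequence around their starts. RefSeq windows of the same length were at hand for 42 of the 48 members, and BBS9, GLI1, GLI3, TCTN2, TMEM67 and WDR35 had none. GTTGCC was found on either strand in windows of 17 of these 42 genes (40.5%), against 16.5% of 14239 measured genes with a window. By window, the shares were 34.5% of 55 member windows and 12.7% of 20109 in all. The median log2 fold change was 0.109 in the 17 genes with GTTGCC and 0.117 in the 25 without. Of the members with a window, 14 were higher at an unadjusted p under 0.05, and 8 of these held GTTGCC. A link between the motif and the change was not tested. The sites of the members with the highest log2 fold changes that hold one follow, with TULP3's first and the match in capitals.
TULP3, chr12:2890839-2890868, plus strand: gtgtggaacgcgGTTGCCaggaggcgggac
DYNC2LI1, chr2:43774019-43774048, minus strand: gaggccttctggGTTGCCatgggagcgacg
TTC8, chr14:88824605-88824634, plus strand: cagccgtcgcggGTTGCCgggcagagtcgg
IFT88, chr13:20567161-20567190, minus strand: cgacgccgagccGTTGCCaagcgcggaatc
BBS10, chr12:76348619-76348648, minus strand: gaggggcttaggGTTGCCgctccaggcaca

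A fuller X-box, GTTNCC followed after 0 to 3 bases by GGNAAC, was found in 3 of the 42 (7.14%), against 1.1% of measured genes with a window. A match to it can contain a GTTGCC, and the same stretch is read on both strands. The 3 genes were ARL6, IFT122 and TCTN1, with the whole match in capitals. Their log2 fold changes were 0.023, 0.10 and 0.0044.
ARL6, chr3:97764726-97764755, plus strand: aagctcctGTTGCCAAGGGAACggtgcctg
IFT122, chr3:129440205-129440234, plus strand: catgtacGTTGCCAGGGGTAACgcaggtag
TCTN1, chr12:110614121-110614150, plus strand: ctgtcgcgGTTGCCGGGCAACgcgctgtcc

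The p53 half-site consensus was found in windows of 3 of the 42 members (DYNC2H1, GLI2 and TTC8), or 7.14%, against 8.19% of measured genes with a window. A match of letters is not evidence that a factor binds there.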

How the data were processed

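MDA-MB-468 cells carrying p53si-1 or NS shRNA were profiled on 2 arrays each. The deposited table holds a log2 value for each transcript cluster on each array; the log2 scale was judged from the range and the nearly equal medians. RMA, GCOS and Affymetrix Expression Console are named in the submitters' processing notes, and the RMA settings are not given there. RMA equalizes the arrays' distributions, which removes a shift common to most genes and compresses changes of dim genes. No further normalization or filter was applied, and the number of arrays limits the precision.

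Of 33297 clusters, 19460 named 1 symbol, 1754 named several and 12083 are unnamed here. The brightest single-symbol cluster stood for each of 18417 genes, and 769 genes had several. TTC26, TTC30A, TTC30B, HSPB11, WDR34 and WDR60 were matched through their current symbols. The p53 transcript is not analysed here. All genes were fitted together in R 4.3.3 with lmFit and eBayes of limma 3.58.1. There were 2 residual and 4.20 prior degrees of freedom, and p-values were adjusted over the whole table by the Benjamini-Hochberg method. Steps were tested on simulated data.

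The members and lists were chosen with earlier results of these data known. LZTFL1 is also among the genes the study itself picked from these arrays. No value adjusted over the list alone and no list test is therefore given. The study also measured LZTFL1 by real-time RT-PCR and reports that it rose over time after the p53 knockdown. Array values are given for members past an adjusted p of 0.05 or 1.5-fold, for the 3 with the largest difference in each role (all in roles of 5 or fewer) and, in other lists, differences of the 2 largest. Other members and list genes are added as ranges or where they complete a complex. Alternatives took the mean of a gene's clusters, every cluster, no dim genes, quantile normalization, median centring, a prior variance by signal, the replicate number as a block, other fold criteria and each array left out. The p53 half-site was searched by its published consensus.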

Additional observations from a re-analysis of the deposited data

How the results depend on the processing

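The count of members higher at an adjusted p under 0.05 was 2, when 6 of all genes were higher. With every transcript cluster in the fit it was 0, when 0 of all genes were higher. With the replicate number as a block it was 1 (TULP3), when 5 of all genes were higher. LZTFL1 and TULP3 both had a limma adjusted p of 0.0446 with the mean of a gene's clusters and 0.0428 with quantile normalization. Without dim genes it was 0.0332 for both, with median centring 0.0272 and with a prior variance by signal 0.0181. Under the block LZTFL1 had an adjusted p of 0.0542. No source says that the number marks a shared culture, and the deviations of same-numbered arrays correlated at 0.24. The count at an unadjusted p under 0.05, chosen after the data were seen, was 16 higher, with 10 from every cluster and 8 to 14 without 1 array, and 1 lower, with 0 to 2 without 1 array. By 1.3-fold in place of 1.5-fold, 8 members were higher in place of 3, and 2 to 4 were higher by over 1.5-fold without 1 array. Without 1 array, the median log2 fold change ran from 0.0952 to 0.1385 over the members and from 0.0793 to 0.1125 over the other 46, and 36 to 38 members had a higher mean. Of 24 members followed by array, 20 kept the sign of their difference under each alternative run for them (GLI1 and GLI2, as dim genes, have no value without the dim genes). The signs of the others turned when 1 array was left out: GLI3 ran from -0.2416 to 0.0232, IFT140 from -0.0168 to 0.1964, PTCH1 from -0.0234 to 0.0872 and TTC21B from -0.0286 to 0.0933. A fit without 1 array assumes that the lone array of its group varies like the other group. No detection calls were used, and DYNC2H1, GLI1 and GLI2 lie in the dimmest 25% of genes. The cause of these changes was not tested.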
